A study of Mus musculus with 18 samples.

Results

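The genes described here are 10 members of the integrated stress response of mouse cells: Ddit3, Nupr1, Trib3, Chac1, Asns, Sesn2, Atf4, Atf5, Cebpb and Atf3. They were followed in mouse embryonic stem cells after knockdown of Esrrb, a nuclear receptor that helps to keep these cells pluripotent. Every probe whose target name, in any case, was DDIT3, NUPR1, TRIB3, CHAC1, ASNS, SESN2, ATF4, ATF5, CEBPB or ATF3 was taken, which gave 14 of the 46643 probes on the array. Trib3 had 3 probes, Asns and Atf4 had 2 probes each, and the other genes had 1 probe. Ddit3 and Nupr1 were chosen by their measured levels, a steep climb over time in control cells and a shallower one in knockdown cells, so their values are given as a description and carry no test. The other 8 genes were added for their place in the pathway. Atf3 was below detection on all 18 arrays, and 7 of these 8 genes could be tested.

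The cells were of the established line E14, grown on gelatin, with serum and with LIF, a cytokine that maintains their undifferentiated state. One arm was transfected with a plasmid expressing an shRNA against Esrrb and the other with the same vector carrying an shRNA against GFP, a jellyfish protein with no gene in mice. RNA was taken at days 2, 4 and 6 and read on Illumina bead arrays, which gave 6 groups of 3 arrays: Esrrb shRNA and GFP shRNA at day 2, at day 4 and at day 6. Both arms share the line, the medium, the transfection reagent and the vector backbone, and the labels name no selection of transfected cells. The knockdown arm has a single shRNA label, so what the hairpin does beyond lowering Esrrb cannot be told apart. By the labels each group has 3 biological replicates. Where they do not come from separate cultures, the p-values measure only the spread between these samples. Each of 3 BeadChips, the slides that carry the arrays, held 1 array of every group, always at the same place on the slide, so group and place cannot be told apart.

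The integrated stress response starts when kinases that sense amino acid shortage, unfolded protein in the endoplasmic reticulum, haem shortage or viral RNA phosphorylate the translation factor eIF2. General translation then slows while the mRNA of the transcription factor ATF4 is translated more, and ATF4 switches on genes of amino acid supply, redox balance and further transcription factors. One of these is Ddit3, which encodes CHOP, a C/EBP family factor best known from prolonged stress and cell death, and another is Nupr1, which encodes a small stress-induced nuclear protein. Because ATF4 is controlled largely at translation, the level of its mRNA is not a measure of its activity.

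ATF4 and its C/EBP partners bind a composite site known as the C/EBP-ATF response element, so promoters are shown with matches to its core for Ddit3, Nupr1 and the 3 tested members that were lower in the knockdown at both day 4 and day 6. The windows are RefSeq sequences of the build GRCm38.p6, from 250 bases before to 50 bases after each gene's annotated start, written 5′ to 3′ along the gene. They lie at chr10:127290543-127290842, plus strand (Ddit3), chr7:126625421-126625720, minus strand (Nupr1), chr2:152344011-152344310, minus strand (Trib3), chr2:119350992-119351291, plus strand (Chac1) and chr6:7693160-7693459, minus strand (Asns). Capitals mark each match to the letters TGATGNAA, read on both strands.
Ddit3: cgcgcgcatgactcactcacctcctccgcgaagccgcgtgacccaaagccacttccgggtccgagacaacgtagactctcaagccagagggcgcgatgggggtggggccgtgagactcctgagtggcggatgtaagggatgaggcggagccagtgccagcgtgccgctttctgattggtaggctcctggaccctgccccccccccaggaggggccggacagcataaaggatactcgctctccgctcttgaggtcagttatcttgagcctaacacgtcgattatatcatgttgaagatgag
Nupr1: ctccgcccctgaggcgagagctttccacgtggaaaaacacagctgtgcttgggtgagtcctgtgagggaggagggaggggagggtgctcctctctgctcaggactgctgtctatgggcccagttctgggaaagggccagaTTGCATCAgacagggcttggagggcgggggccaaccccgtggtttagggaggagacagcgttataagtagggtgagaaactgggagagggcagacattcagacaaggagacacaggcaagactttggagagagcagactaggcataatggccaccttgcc
Trib3: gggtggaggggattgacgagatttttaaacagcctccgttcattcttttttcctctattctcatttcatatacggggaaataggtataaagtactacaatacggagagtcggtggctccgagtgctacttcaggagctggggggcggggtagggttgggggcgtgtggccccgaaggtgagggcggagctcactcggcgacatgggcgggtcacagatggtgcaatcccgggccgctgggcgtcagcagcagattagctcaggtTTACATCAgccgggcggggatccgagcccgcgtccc
Chac1: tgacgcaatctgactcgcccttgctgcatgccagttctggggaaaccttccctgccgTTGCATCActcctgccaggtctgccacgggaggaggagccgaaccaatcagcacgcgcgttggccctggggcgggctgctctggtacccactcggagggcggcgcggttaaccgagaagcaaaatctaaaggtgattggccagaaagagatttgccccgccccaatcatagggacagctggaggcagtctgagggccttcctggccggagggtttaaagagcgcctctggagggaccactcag
Asns: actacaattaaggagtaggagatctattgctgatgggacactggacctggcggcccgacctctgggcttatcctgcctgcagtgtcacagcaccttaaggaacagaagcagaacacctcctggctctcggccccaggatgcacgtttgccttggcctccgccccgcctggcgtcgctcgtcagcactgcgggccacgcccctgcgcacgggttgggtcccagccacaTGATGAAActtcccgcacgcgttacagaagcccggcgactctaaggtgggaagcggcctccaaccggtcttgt
The core letters stood once in the windows of Nupr1, Trib3, Atf3, Asns and Chac1. The match began at position -110 relative to the start in Nupr1, at -110 in Atf3, at -193 in Chac1, at -23 in Asns and at 15, inside the transcript, in Trib3. The Asns match ran on the strand of the gene and the others on the opposite strand. No match was in the windows of Ddit3, Atf4, Atf5, Sesn2 or Cebpb, which says only that these letters are not in these windows. Of all 32851 windows of this length, 1304 (3.97%) held the letters, against 5 of the 11 windows of the members. The cyclic AMP response element TGACGTCA (1.79% of all windows), the endoplasmic reticulum stress response element (0.119%) and the Esrrb half-site TCAAGGTCA (0.423%), read on both strands, were in 0 windows of the members, so none overlapped a marked match.

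All levels below are log2 normalized intensities of a probe, on which 1 unit is a doubling and which cannot be set against another probe's level. Median raw intensity ran from 60.4 to 76.9 over the 18 arrays, and 37.7% to 42.6% of probes were detected. Esrrb itself fell to 21.3%, 15.2% and 27.4% of its level in GFP shRNA cells at days 2, 4 and 6 (log2 fold changes -2.23, -2.72 and -1.87, SE 0.11 each, limma adjusted p = 4.39e-11, 3.96e-13 and 3.59e-11). Its second, dim probe did not enter the fit and stood at -0.14, 0.03 and -0.02. Of 8 embryonic stem cell markers, 7 passed the detection filter and were detected on all arrays (Dppa5a did not), among them Pou5f1, Sox2 and Nanog. Of 8 fibroblast markers 3 passed, and Col1a1, Col1a2, Col3a1, Lum and Postn were below detection. Trophectoderm markers (6 of 8 passed; Hand1 and Elf5 did not) had a summed linear level of 10124 to 12217 in Esrrb shRNA cells against 5217 to 5389 in GFP shRNA cells at day 6. At day 4 the sums were 5641 to 6040 in Esrrb shRNA cells against 2591 to 2753 in GFP shRNA cells, and at day 2 they were 3155 to 3367 against 2101 to 2514. The summed level of the 7 stem cell markers was 13312 to 13994 in Esrrb shRNA cells and 16847 to 17263 in GFP shRNA cells at day 6. It was 14262 to 16028 against 17469 to 18929 at day 2, and 12974 to 13273 against 17351 to 18015 at day 4. The 3 fibroblast markers summed to 311 to 351 in Esrrb shRNA cells and 311 to 358 in GFP shRNA cells at day 2. Their sums were 239 to 261 in Esrrb shRNA cells against 369 to 409 in GFP shRNA cells at day 4, and 143 to 161 against 297 to 310 at day 6. Of these 3, Dcn passed only through Esrrb shRNA at day 2 and was below detection in every other group, so its values there are background. Of 8 endoderm markers 6 passed, with Sox7 and Afp below detection, and the day 6 sums of these 6 were 1006 to 1043 in Esrrb shRNA cells and 1045 to 1090 in GFP shRNA cells. On the earlier days the sums had the other order, with 750 to 866 against 601 to 693 at day 2 and 936 to 997 against 745 to 854 at day 4. A linear sum follows its brightest genes, and the mean log2 level of these 6 overlapped between the arms on both days. It was 6.27 to 6.40 in Esrrb shRNA cells against 6.21 to 6.36 at day 2, and 6.36 to 6.49 against 6.43 to 6.64 at day 4. Sox17 was also below detection in Esrrb shRNA cells at day 2, and Foxa2 in GFP shRNA cells at day 6. The part of these cell type differences in the results below was not tested. In RNA from whole cultures, fewer cells that express a gene and less of its RNA per cell cannot be told apart.

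Ddit3 was at its highest in control cells at days 4 and 6 and stayed far lower in knockdown cells, although at day 2 the order was the other way round. At day 2 the level was 7.26, 7.27 and 7.23 in Esrrb shRNA cells and 6.75, 6.85 and 6.64 in GFP shRNA cells. At day 4 it was 8.37, 8.12 and 8.24 in Esrrb shRNA cells and 9.78, 9.53 and 9.78 in GFP shRNA cells. At day 6 it was 8.42, 8.47 and 8.64 in Esrrb shRNA cells and 10.35, 10.54 and 10.23 in GFP shRNA cells. The arms did not overlap on any day, with the knockdown arrays above at day 2 and below at days 4 and 6. As a fold change of Esrrb shRNA over GFP shRNA this is 1.42 at day 2 (log2 0.51, SE 0.11), 0.366 at day 4 (log2 -1.45, SE 0.11) and 0.274 at day 6 (log2 -1.87, SE 0.11). Within single BeadChips the log2 difference lay between 0.42 and 0.59 at day 2, between -1.54 and -1.40 at day 4 and between -2.08 and -1.58 at day 6.

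Nupr1 followed the same course on its own probe. At day 2 its level was 8.57, 8.54 and 8.48 in Esrrb shRNA cells and 7.80, 8.04 and 8.07 in GFP shRNA cells. At day 4 the values were 9.90, 9.76 and 9.99 in Esrrb shRNA cells and 10.93, 10.99 and 10.96 in GFP shRNA cells. At day 6 they were 10.23, 10.01 and 9.95 in Esrrb shRNA cells and 11.65, 11.65 and 11.69 in GFP shRNA cells. Here too the arms did not overlap on any day and changed places between days 2 and 4. The log2 fold change of Esrrb shRNA over GFP shRNA was 0.56 at day 2, -1.08 at day 4 and -1.60 at day 6 (SE 0.10 each), which is 1.47-fold, 0.473-fold and 0.33-fold. Within single BeadChips it lay between 0.42 and 0.76 at day 2, between -1.24 and -0.97 at day 4 and between -1.74 and -1.42 at day 6.

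The 6 groups had the same order for both genes. From the highest down, mean Ddit3 levels were 10.37 ± 0.16 in GFP shRNA at day 6, 9.70 ± 0.14 in GFP shRNA at day 4, 8.51 ± 0.12 in Esrrb shRNA at day 6, 8.25 ± 0.13 in Esrrb shRNA at day 4, 7.25 ± 0.02 in Esrrb shRNA at day 2 and 6.74 ± 0.10 in GFP shRNA at day 2 (SD, n = 3 each). For Nupr1 the same groups had 11.66 ± 0.02, 10.96 ± 0.03, 10.06 ± 0.14, 9.88 ± 0.12, 8.53 ± 0.04 and 7.97 ± 0.15. Days 4 and 6 of the knockdown arm were the closest neighbours. For Nupr1 these groups overlapped, and within single BeadChips their difference ran from -0.03 to 0.33 on the log2 scale. For Ddit3 they were apart by 0.26, with 0.04 to 0.40 within single BeadChips. Between days 2 and 4 the knockdown cells gained 0.99 in Ddit3 and 1.35 in Nupr1 (log2), against 2.95 and 2.99 in control cells. Between days 4 and 6 they gained 0.26 and 0.18, against 0.68 and 0.70 in control cells. Most of the climb lay before day 4 in both arms.

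**Figure D1:**
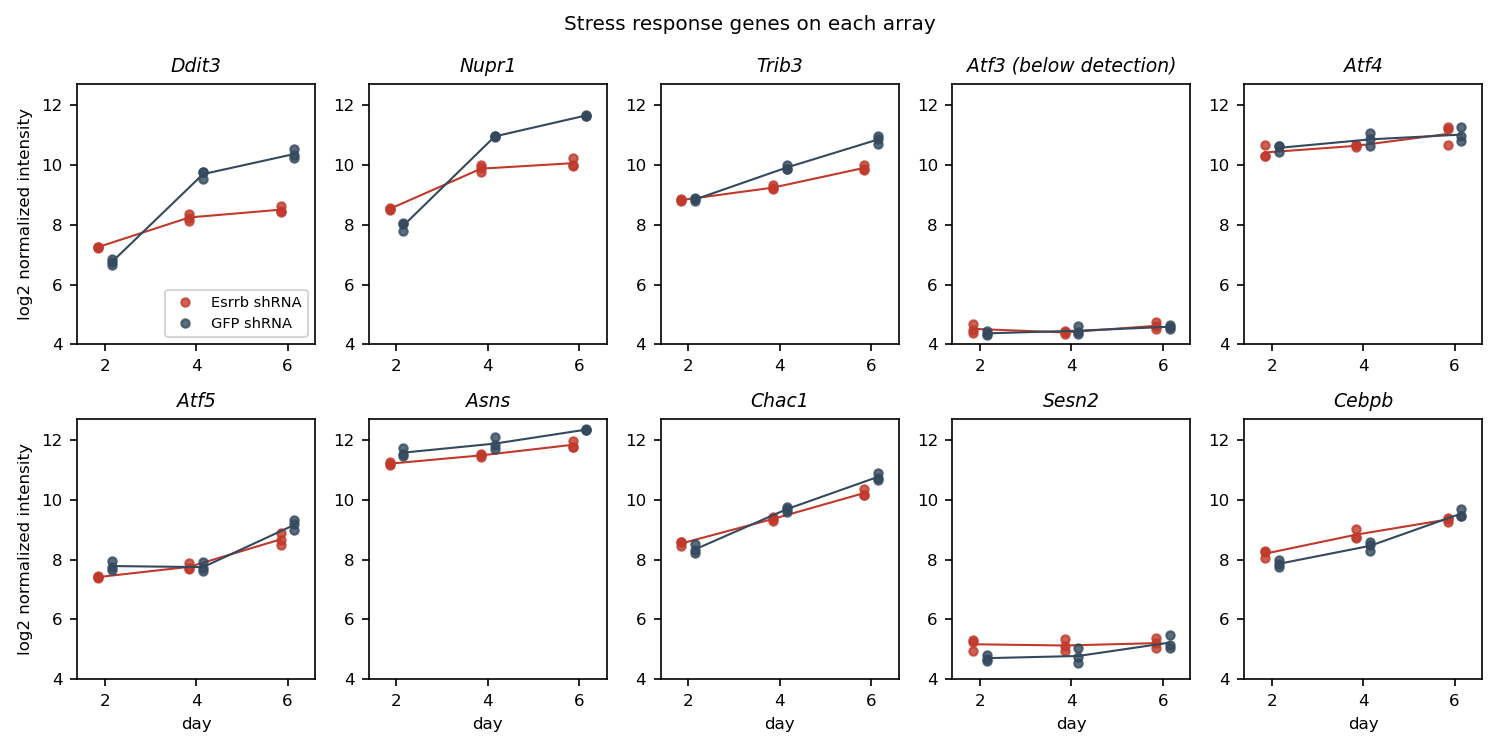
Level of each of the 10 genes on each array (points) by day, as log2 normalized intensity, with lines through the group means; Esrrb shRNA in red, left, and GFP shRNA in dark blue, right, and for genes with several probes the brightest. Ddit3 and Nupr1 climb steeply in control cells, to means of 10.37 and 11.66 at day 6, and end at 8.51 and 10.06 in knockdown cells, while Atf4 differs little between the arms and Atf3 stays below detection.

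Among the transcription factors around ATF4, no member was lower in the knockdown on every day. Atf4, the central factor of the response, had 10.29, 10.66 and 10.31 in Esrrb shRNA cells and 10.44, 10.65 and 10.64 in GFP shRNA cells at day 2. At day 4 it had 10.66, 10.69 and 10.59 in Esrrb shRNA cells and 10.64, 11.07 and 10.87 in GFP shRNA cells. By day 6 Atf4 had 10.67, 11.20 and 11.27 in Esrrb shRNA cells and 10.81, 10.96 and 11.29 in GFP shRNA cells. The arms overlapped on all 3 days, with log2 fold changes of -0.15, -0.22 and 0.02 (SE 0.16 each, limma adjusted p = 0.596, 0.359 and 0.928). The 95% interval at day 6 ran from -0.30 to 0.35. The second Atf4 probe gave 0.02, -0.23 and 0.02 (SE 0.16 each), none of which passed.

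Atf5, a related factor whose translation is also raised when eIF2 is phosphorylated, had 7.41, 7.45 and 7.39 in Esrrb shRNA cells and 7.95, 7.66 and 7.75 in GFP shRNA cells at day 2. The arms overlapped at day 4, with 7.67, 7.71 and 7.90 in Esrrb shRNA cells and 7.61, 7.71 and 7.93 in GFP shRNA cells. At day 6 it had 8.50, 8.65 and 8.89 in Esrrb shRNA cells and 8.98, 9.21 and 9.32 in GFP shRNA cells, again apart. It fell at day 2 (-0.37, SE 0.12, limma adjusted p = 0.0477) and at day 6 (-0.49, SE 0.12, limma adjusted p = 0.00255), and stood at 0.01 at day 4 (SE 0.12, limma adjusted p = 0.967). The day 2 call rests close to the threshold. Its adjusted p was 0.108, 0.0839 and 0.113 without replicate 1, 2 and 3 of Esrrb shRNA, and 0.175 and 0.0688 without replicate 1 and 3 of GFP shRNA. Median centring gave 0.162, and a fit to the day 2 arrays alone gave 0.101.

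Cebpb, a C/EBP factor that pairs with ATF4 and CHOP, stood above the control in the knockdown at days 2 and 4 and below it at day 6. At day 2 it had 8.29, 8.24 and 8.06 in Esrrb shRNA cells and 7.99, 7.84 and 7.74 in GFP shRNA cells. At day 4 it had 9.03, 8.74 and 8.75 in Esrrb shRNA cells and 8.50, 8.60 and 8.28 in GFP shRNA cells. By day 6 the levels were 9.37, 9.40 and 9.27 in Esrrb shRNA cells and 9.71, 9.45 and 9.48 in GFP shRNA cells. The arms did not overlap on any day. Only the day 4 rise passed (0.38, SE 0.11, limma adjusted p = 0.0194). The log2 fold changes were 0.34 at day 2 (limma adjusted p = 0.0556, and 0.0148 with the replicate number, the BeadChip, as a block) and -0.20 at day 6 (limma adjusted p = 0.175). The day 4 rise had an adjusted p of 0.118 without Esrrb shRNA replicate 1 and 0.118 without GFP shRNA replicate 3. The day 2 difference passed without Esrrb shRNA replicate 3 (0.0439) and without GFP shRNA replicate 1 (0.0424).

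Atf3, a stress-induced factor of the same bZIP family, was not well above background on any array. Its 18 values lay between 4.30 and 4.74, and no fold change is given.

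Trib3, a pseudokinase gene switched on by ATF4 and CHOP, had the largest day 6 difference of the 7 tested members. At day 2 the arms overlapped, with 8.88, 8.79 and 8.82 in Esrrb shRNA cells and 8.89, 8.86 and 8.80 in GFP shRNA cells. At day 4 it had 9.33, 9.22 and 9.19 in Esrrb shRNA cells and 10.0007, 9.88 and 9.87 in GFP shRNA cells. By day 6 the values were 10.003, 9.84 and 9.88 in Esrrb shRNA cells and 10.72, 10.98 and 10.88 in GFP shRNA cells. The knockdown arrays lay below all control arrays at days 4 and 6. Trib3 stood at -0.02 at day 2 (SE 0.09, limma adjusted p = 0.929), fell by 0.67 at day 4 (limma adjusted p = 8.7e-06) and fell by 0.95 at day 6 (limma adjusted p = 4.19e-08), which is 1.93-fold lower. Its 2 dimmer probes gave -0.64 and -0.55 at day 4 and -1.18 and -1.19 at day 6 (SE 0.12 and 0.14), all of which passed when every probe was tested on its own.

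Chac1, which encodes an enzyme that breaks down glutathione, had 8.58, 8.60 and 8.45 in Esrrb shRNA cells and 8.51, 8.31 and 8.21 in GFP shRNA cells at day 2. At day 4 it had 9.31, 9.42 and 9.36 in Esrrb shRNA cells and 9.58, 9.78 and 9.70 in GFP shRNA cells. By day 6 Chac1 had 10.38, 10.15 and 10.16 in Esrrb shRNA cells and 10.91, 10.67 and 10.74 in GFP shRNA cells. The arms overlapped at day 2 and were apart, with the knockdown below, at days 4 and 6. The log2 fold change was 0.20 at day 2 (SE 0.10, limma adjusted p = 0.228). Chac1 fell by 0.33 at day 4 (limma adjusted p = 0.0233) and by 0.54 at day 6 (limma adjusted p = 0.000216). The day 4 fall did not pass with median centring (-0.18, adjusted p = 0.296), nor without Esrrb shRNA replicate 1 (0.0819) or 3 (0.0605), nor without GFP shRNA replicate 2 (0.0983) or 3 (0.0665).

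Asns, which encodes asparagine synthetase, was lower in the knockdown on each day. At day 2 it had 11.16, 11.27 and 11.22 in Esrrb shRNA cells and 11.55, 11.48 and 11.73 in GFP shRNA cells. At day 4 it had 11.43, 11.50 and 11.54 in Esrrb shRNA cells and 11.85, 12.09 and 11.71 in GFP shRNA cells. At day 6 it had 11.78, 11.98 and 11.79 in Esrrb shRNA cells and 12.37, 12.35 and 12.34 in GFP shRNA cells. The arms did not overlap on any day. Asns fell by 0.37, 0.39 and 0.51 at days 2, 4 and 6 (SE 0.10 each, limma adjusted p = 0.0188, 0.00672 and 0.000387). A second, dimmer probe gave -0.34, -0.71 and -0.87 (SE 0.13 each), of which days 4 and 6 passed. With median centring the first probe gave -0.31 at day 2 (adjusted p = 0.232) and -0.32 at day 4 (adjusted p = 0.122), which did not pass. The day 2 fall also missed the threshold without Esrrb shRNA replicate 1 (0.074) and GFP shRNA replicate 3 (0.0846), and the day 4 fall without GFP shRNA replicate 2 (0.0569).

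Sesn2, which encodes a leucine sensor that restrains mTORC1, was close to background throughout. It was detected on 2 of 3 Esrrb shRNA arrays and 0 of 3 GFP shRNA arrays at day 2, on 2 and 1 at day 4, and on all arrays at day 6, so it entered the test through its day 6 groups. At day 2 it had 5.26, 5.29 and 4.95 in Esrrb shRNA cells and 4.80, 4.69 and 4.62 in GFP shRNA cells, which did not overlap. In the model it passed as higher in Esrrb shRNA cells at day 2 (limma adjusted p = 0.0386). No size or bound is given for that day, because only 2 of 3 Esrrb shRNA arrays and 0 of 3 GFP shRNA arrays were above detection. The differences at day 4 (0.35, limma adjusted p = 0.0859) and day 6 (-0.02, limma adjusted p = 0.937) did not pass. The day 2 call was lost without any 1 of 5 arrays, with an adjusted p of 0.125 and 0.134 without Esrrb shRNA replicates 1 and 2, and of 0.0506, 0.0805 and 0.0998 without GFP shRNA replicates 1, 2 and 3. It was also lost with no background correction (0.0536), median centring (0.0729), no filter on dim probes (0.0888) and only the day 2 arrays (0.0609). At day 4 the difference passed without GFP shRNA replicate 1 (0.0292).

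**Figure D2:**
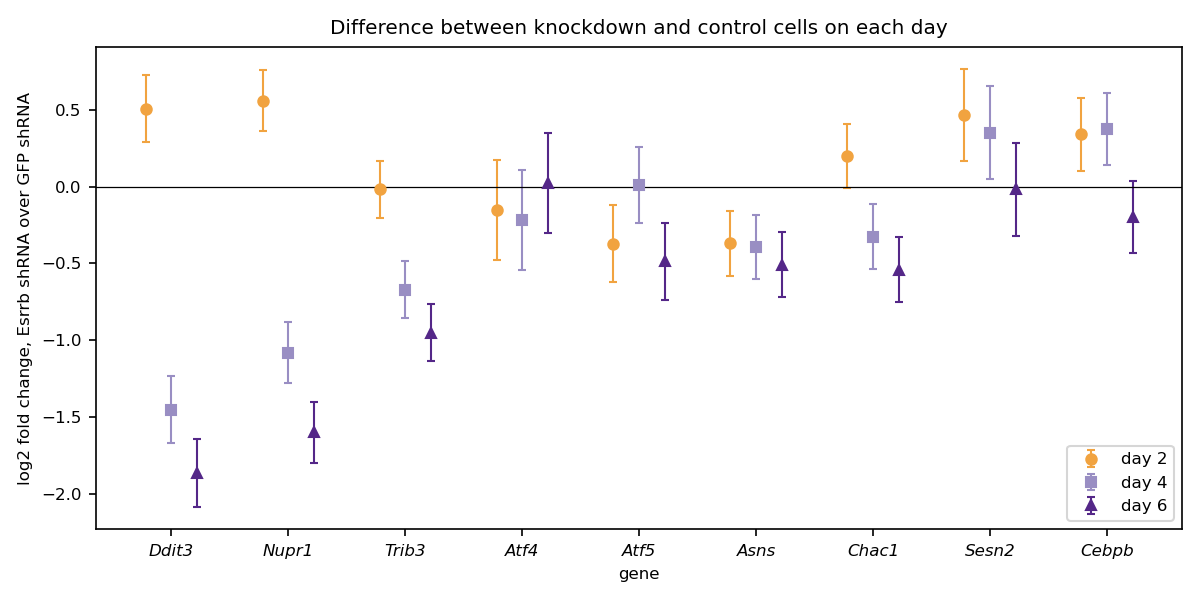
Log2 fold change of Esrrb shRNA over GFP shRNA (vertical axis) for the 9 measured genes at days 2, 4 and 6, with bars for the 95% interval of the limma model on 3 arrays a group. Ddit3 and Nupr1 lie above 0 at day 2 and at -1.87 and -1.60 by day 6, and Trib3 goes down stepwise to -0.95, while the intervals of Atf4 include 0 on every day. For Ddit3 and Nupr1, chosen by their levels, the bars are a description and no test. The Sesn2 point at day 2 is not a size, because Sesn2 was detected there on 0 of 3 GFP shRNA arrays.

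Counted over the 7 tested members, 1 rose and 2 fell at day 2, where 6.6% of all 14532 genes rose and 5.55% fell. The 1 counted as risen was Sesn2, close to background and detected on 0 of 3 GFP shRNA arrays there, and 4 of 13 alternatives kept its call. At day 4, 1 rose and 3 fell, where 12.3% of all genes rose and 11.1% fell. At day 6, 0 rose and 4 fell, where 19.8% of all genes rose and 21.2% fell. The median log2 fold change of these 7 was -0.02, -0.22 and -0.49 on the 3 days, beside 0.0022, -0.0023 and -0.0049 over all genes. The members that passed at day 6 were Trib3, Chac1, Asns and Atf5. With 7 genes chosen for their pathway after results of these data were known, these counts are a description. The day 2 count was 0 with median centring, 0 with only the day 2 arrays and 1 with no filter on dim probes. It was 0 without Esrrb shRNA replicate 1, 0 without GFP shRNA replicate 3 and 1 without Esrrb shRNA replicate 2. The day 4 count was 2 with median centring, and 2 without Esrrb shRNA replicate 1, GFP shRNA replicate 2 or GFP shRNA replicate 3.

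Over time within an arm the response genes went up in both. From day 2 to day 6, 6 of the 7 tested members rose in Esrrb shRNA cells, where 19.5% of all genes rose, and all 7 passed as higher in GFP shRNA cells, where 25.9% rose. One of the 7 was Sesn2, which entered the fit only through its day 6 groups. The other 6 rose in both arms. The rises in Esrrb shRNA and GFP shRNA cells were 3.22-fold and 5.38-fold for Chac1, 2.11-fold and 4.02-fold for Trib3, and 2.22-fold and 3.22-fold for Cebpb. Atf5 rose 2.41-fold in Esrrb shRNA cells and 2.61-fold in GFP shRNA cells, Asns 1.55-fold and 1.71-fold, and Atf4 1.54-fold and 1.36-fold. Sesn2 stood at 1.03-fold in Esrrb shRNA cells (limma adjusted p = 0.868) and, from 0 arrays detected at day 2, was at least 1.14-fold higher at day 6 in GFP shRNA cells. Such a bound is measured against the detection floor, taken from the lowest detected signal on each array. Adjusted p-values of the other rises ran from 1.09e-10 (Chac1) to 0.00347 (Atf4) in Esrrb shRNA cells and from 4.61e-13 (Chac1) to 0.0223 (Atf4) in GFP shRNA cells. The Atf4 rise in GFP shRNA cells did not pass without replicate 1 of day 2 (0.0836), without replicate 3 of day 6 (0.136), with median centring (0.0546) or with no filter on dim probes (0.0599). For Ddit3 and Nupr1, whose climb chose them, day 6 over day 2 was 2.39-fold and 2.89-fold in Esrrb shRNA cells, against 12.4-fold and 12.9-fold in GFP shRNA cells. Among 14532 genes these ranked 193 and 93 from the top in Esrrb shRNA cells, and 2 and 1 in GFP shRNA cells.

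The rises were also read in steps of 2 days. Trib3 and Chac1 rose in each interval and each arm, by 0.41 and 0.82 from day 2 to day 4 and by 0.66 and 0.87 from day 4 to day 6 in Esrrb shRNA cells, and by 1.07 and 1.34 and then 0.94 and 1.09 in GFP shRNA cells (log2). The largest adjusted p among these was 0.00215, although the 2 dimmer Trib3 probes did not pass in Esrrb shRNA cells from day 4 to day 6 (0.25 and 0.25, adjusted p = 0.166 and 0.227). In these steps 10.8% and then 10.5% of all genes rose in Esrrb shRNA cells, and 13% and then 19.2% in GFP shRNA cells. Atf5 rose in the second step, by 0.92 in Esrrb shRNA cells and 1.42 in GFP shRNA cells from day 4 to day 6 (limma adjusted p = 1.33e-05 and 3.08e-08). Before day 4 it had changed by 0.34 in Esrrb shRNA cells (limma adjusted p = 0.0483, not passed without any 1 of the 6 arrays compared, with a highest value of 0.188) and stood at -0.04 in GFP shRNA cells (limma adjusted p = 0.86). Cebpb rose by 0.64 and then 0.51 in Esrrb shRNA cells and by 0.60 and then 1.08 in GFP shRNA cells (limma adjusted p = 0.000376, 0.0029, 0.000726 and 4.15e-07).

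Whether the rise itself differed between the arms was tested as the change of the knockdown effect between days. From day 2 to day 6 this difference passed with a negative value for 3 of the 7 tested members and for 13.9% of all genes. It was -0.93 for Trib3 (SE 0.13, limma adjusted p = 2.05e-05), -0.74 for Chac1 (SE 0.14, limma adjusted p = 0.000737) and -0.54 for Cebpb (SE 0.16, limma adjusted p = 0.0179). On each of the 3 BeadChips it was negative, from -1.07 to -0.70 for Trib3, from -0.83 to -0.59 for Chac1 and from -0.64 to -0.44 for Cebpb. The Cebpb value had an adjusted p of 0.0583 without GFP shRNA replicate 1 of day 6. Sesn2 did not pass (limma adjusted p = 0.09, and 0.0448 without Esrrb shRNA replicate 3 of day 2), and no size is given because it was detected on 0 of 3 GFP shRNA arrays at day 2. Asns at -0.14 (SE 0.14, 95% interval -0.44 to 0.16), Atf5 at -0.12 (SE 0.17, interval -0.47 to 0.24) and Atf4 at 0.18 (SE 0.22, interval -0.28 to 0.64) did not pass (limma adjusted p = 0.527, 0.667 and 0.611). The second Asns probe differed from the first, with -0.53 (SE 0.18, adjusted p = 0.0421 when every probe was tested). For Ddit3 and Nupr1 the same difference was -2.37 and -2.16 (SE 0.15 and 0.14), with no test.

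The change of the knockdown effect was read in the same steps. From day 2 to day 4, where 2.5% of all genes passed with a negative value, it was -0.65 for Trib3 (limma adjusted p = 0.00372, and 0.0607 with median centring) and -0.52 for Chac1 (limma adjusted p = 0.0378). The 2 dimmer Trib3 probes gave -0.48 and -0.39 for this step, which did not pass (adjusted p = 0.134 and 0.302). From day 4 to day 6 they gave -0.54 and -0.64, which passed (adjusted p = 0.0468 and 0.0323), and the brightest probe gave -0.28, which did not (limma adjusted p = 0.155). The mean of the 3 probes gave -0.49 for that later step (adjusted p = 0.00464). The Chac1 value did not pass with median centring (0.144), with only the arrays compared (0.0583), or without any 1 of 9 of the 12 arrays, where it ran up to 0.0998. Those arrays were Esrrb shRNA replicates 1 and 2 and GFP shRNA replicates 2 and 3 of day 2, and Esrrb shRNA replicates 1, 2 and 3 and GFP shRNA replicates 2 and 3 of day 4. From day 4 to day 6, where 8.13% of all genes did, it was -0.57 for Cebpb (limma adjusted p = 0.0192), with 0.0641 without Esrrb shRNA replicate 1 of day 4, 0.0613 without GFP shRNA replicate 3 of day 4 and 0.0626 without GFP shRNA replicate 1 of day 6. Atf5 stood at -0.50 over the same step and did not pass (limma adjusted p = 0.0548, and 0.0291 with the BeadChip as a block).

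**Figure D3:**
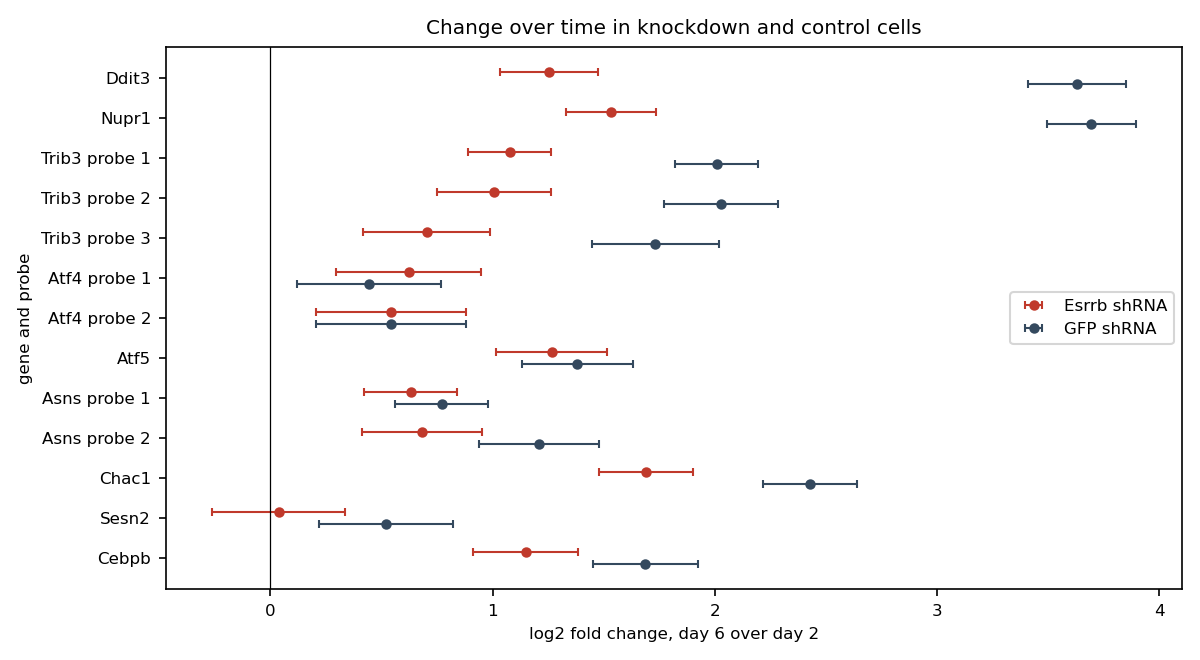
Log2 fold change of day 6 over day 2 (horizontal axis) in Esrrb shRNA cells (red, upper) and GFP shRNA cells (dark blue, lower) for each probe of the measured genes, with 95% intervals of the limma model. The gap between arms is widest for Ddit3 and Nupr1 (2.39-fold and 2.89-fold against 12.4-fold and 12.9-fold) and present for all 3 Trib3 probes and Chac1. For Atf4, Atf5 and the brighter Asns probe the intervals of the arms overlap. For Ddit3 and Nupr1, chosen by these changes, the bars are a description and no test. The Sesn2 point of GFP shRNA cells is not a size, because Sesn2 was detected there on 0 of 3 arrays at day 2.

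The genes whose levels followed Ddit3 and Nupr1 most closely over the 18 arrays were largely shared. This is no separate result, because Ddit3 and Nupr1 were chosen for the same course and had r = 0.99 with each other. Among 11635 tested genes with a symbol, the 5 with the highest Pearson r to Ddit3 were S100a1 (0.97), Hsd17b1 (0.97), Ppp1r3b (0.97), Spg21 (0.95) and Elovl4 (0.95). For Nupr1 they were Ppp1r3b (0.98), S100a1 (0.98), Hsd17b1 (0.97), Cryzl1 (0.97) and Spg21 (0.96). Ppp1r3b was below detection at day 2 in both arms, so its day 2 values are background. The points share arrays, days and arms, so these values describe a common pattern across 6 groups and carry no test. S100a1, which encodes a calcium-binding protein, had log2 fold changes of Esrrb shRNA over GFP shRNA of 0.09, -0.65 and -1.77 at days 2, 4 and 6, and gained 1.59 in Esrrb shRNA cells and 3.44 in GFP shRNA cells from day 2 to day 6. Between the members, Ddit3 had r = 0.99 with Nupr1, 0.94 with Trib3, 0.88 with Chac1, 0.81 with Asns, 0.72 with Cebpb, 0.64 with Atf5, 0.62 with Atf4 and 0.24 with Sesn2.

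Further genes of the pathway were read from lists by role. Among other targets of ATF4 and CHOP, 10 of 12 measured genes rose and 0 fell from day 2 to day 6 in GFP shRNA cells (median log2 change 0.69), where 25.9% of all genes rose and 23.1% fell. In Esrrb shRNA cells 5 rose and 0 fell (median 0.30), where 19.5% of all genes rose and 17.6% fell. At day 6, 1 was higher and 6 were lower in Esrrb shRNA than in GFP shRNA cells (median -0.35), where 19.8% of all genes were higher and 21.2% lower. The median over all genes was -0.0038, -0.0061 and -0.0049 in these comparisons. Gdf15, a stress-induced cytokine gene, had a mean of 5.78 ± 0.07 in Esrrb shRNA cells and 7.16 ± 0.08 in GFP shRNA cells at day 6 (SD, n = 3 each) and fell by 1.38 (SE 0.15, limma adjusted p = 2.07e-07). Vldlr, a lipoprotein receptor gene, rose at day 2 (0.68, SE 0.09, limma adjusted p = 2.92e-05) and fell at day 6 (-0.74, limma adjusted p = 2.08e-06), the same change of sign as Ddit3 and Nupr1. At day 4, where Ddit3 and Nupr1 were already lower in the knockdown, Vldlr had 7.75 ± 0.09 in Esrrb shRNA cells and 7.74 ± 0.02 in GFP shRNA cells. Fgf21, a stress hormone gene counted among the 10 and the 6, was detected on 0 of 3 arrays in Esrrb shRNA cells and 3 of 3 in GFP shRNA cells at day 6, and on 0 arrays in the other 4 groups. It entered the fit through the group where it was high, so only a bound is given: it was at least 1.18-fold higher in GFP shRNA cells at day 6.

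In the list of serine, proline and one-carbon synthesis, 7 of 10 measured genes fell and 0 rose at day 6 (median -0.77), where 21.2% of all genes fell and 19.8% rose. Pycr1, which encodes the last enzyme of proline synthesis, had 6.49 ± 0.08 in Esrrb shRNA cells and 7.59 ± 0.04 in GFP shRNA cells at day 6, 0.465 of the control level (SE 0.09 on the log2 scale, limma adjusted p = 3.25e-09). Shmt2, the mitochondrial serine hydroxymethyltransferase gene, fell on each day, by 0.42, 0.67 and 0.85 (SE 0.10 each, limma adjusted p = 0.00627, 2.99e-05 and 8e-07). Cth, which encodes the cystathionine lyase that makes cysteine, fell by 1.02 at day 6 (SE 0.16, limma adjusted p = 2.64e-05). In GFP shRNA cells 5 genes of this list rose and 1 fell from day 2 to day 6 (median 0.49), beside 25.9% and 23.1% of all genes. In Esrrb shRNA cells 1 rose and 2 fell (median -0.07), beside 19.5% and 17.6%.

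Among amino acid transporters and tRNA charging enzymes, 7 of 18 measured genes fell and 1 rose at day 6 (median -0.21), beside 21.2% and 19.8% of all genes. With time in GFP shRNA cells 10 rose and 2 fell (median 0.36), beside 25.9% and 23.1%. In Esrrb shRNA cells 4 rose and 0 fell (median 0.13), beside 19.5% and 17.6%. Slc1a5, a glutamine transporter gene, had 7.86 ± 0.14 in Esrrb shRNA cells and 9.28 ± 0.12 in GFP shRNA cells at day 6 and fell by 1.43 (SE 0.11, limma adjusted p = 1.47e-09). Its level in Esrrb shRNA cells differed by -0.01 between day 6 and day 2 (limma adjusted p = 0.94), while in GFP shRNA cells it rose by 1.44 (limma adjusted p = 1.04e-09), and the arms differed in this change by -1.46 (limma adjusted p = 7.98e-07). The alanyl- and seryl-tRNA synthetase genes Aars and Sars fell by 0.56 and 0.60 at day 6 (limma adjusted p = 1.8e-05 and 5e-05).

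In other branches of the stress network the counts at day 6 are set beside 19.8% of all genes that rose and 21.2% that fell. Of 14 genes of the eIF2 kinases, eIF2 and eIF2B, 2 rose and 2 fell at day 6 (median 0.03). Eif2s2, the beta subunit of eIF2, and Eif2b3, a subunit of its exchange factor, fell by 0.61 and 0.54 (limma adjusted p = 3.68e-05 and 3.87e-05), and Impact, an inhibitor of the amino acid sensor GCN2, rose by 0.68 (limma adjusted p = 0.000807). Of 16 endoplasmic reticulum chaperones and unfolded protein response genes, 1 rose and 3 fell (median 0.07). With so few genes in both lists, these counts are not read as different from the shares over all genes. The chaperone and unfolded protein response genes that fell were Sdf2l1, Xbp1 and Pdia4, at -0.80, -0.41 and -0.36 (limma adjusted p = 1.64e-06, 0.00138 and 0.00512). Hspa5, the main chaperone of that compartment, stood at 0.29 at day 6 (limma adjusted p = 0.221), a gene named after its value was seen. Of 7 targets of NRF2, the oxidative stress factor, 3 rose and 2 fell at day 6 (median 0.28), with Nqo1 at -0.99, Srxn1 at -0.40 and Hmox1 at 0.36 (limma adjusted p = 7.02e-08, 0.000689 and 0.00405). From day 2 to day 6 these NRF2 targets went down in both arms. In GFP shRNA cells 6 of these 7 fell and 0 rose (median -0.48), where 23.1% of all genes fell and 25.9% rose. In Esrrb shRNA cells 5 fell and 0 rose (median -0.38), where 17.6% of all genes fell and 19.5% rose.

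Of 12 bZIP factors related to the members, 1 rose and 5 fell at day 6 (median -0.22, and 0.0018 with no filter on dim probes), where 19.8% of all genes rose and 21.2% fell. The factor counted as risen was Jun, which was detected on 2, 3 and 3 arrays in Esrrb shRNA cells and on 0 arrays in GFP shRNA cells at days 2, 4 and 6. It entered the fit through the arm where it was high, so only a bound is given: it was at least 2.63-fold higher in Esrrb shRNA cells at day 6. Jdp2, a bZIP repressor that pairs with JUN, fell by 1.36 (SE 0.20, limma adjusted p = 1.49e-05), and Cebpd, a C/EBP factor gene, fell by 0.64 (SE 0.11, limma adjusted p = 9.01e-05). Of 6 measured paralogues of the members, 2 rose and 1 fell at day 6 (median 0.10), beside the same shares. Trib2 went the opposite way to Trib3, with 7.49 ± 0.19 in Esrrb shRNA cells and 5.96 ± 0.17 in GFP shRNA cells at day 6, a rise of 1.52 (SE 0.12, limma adjusted p = 5.34e-09). Sesn3 rose by 0.70 and Sesn1 fell by 0.50 (limma adjusted p = 0.000444 and 0.000646).

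**Figure D4:**
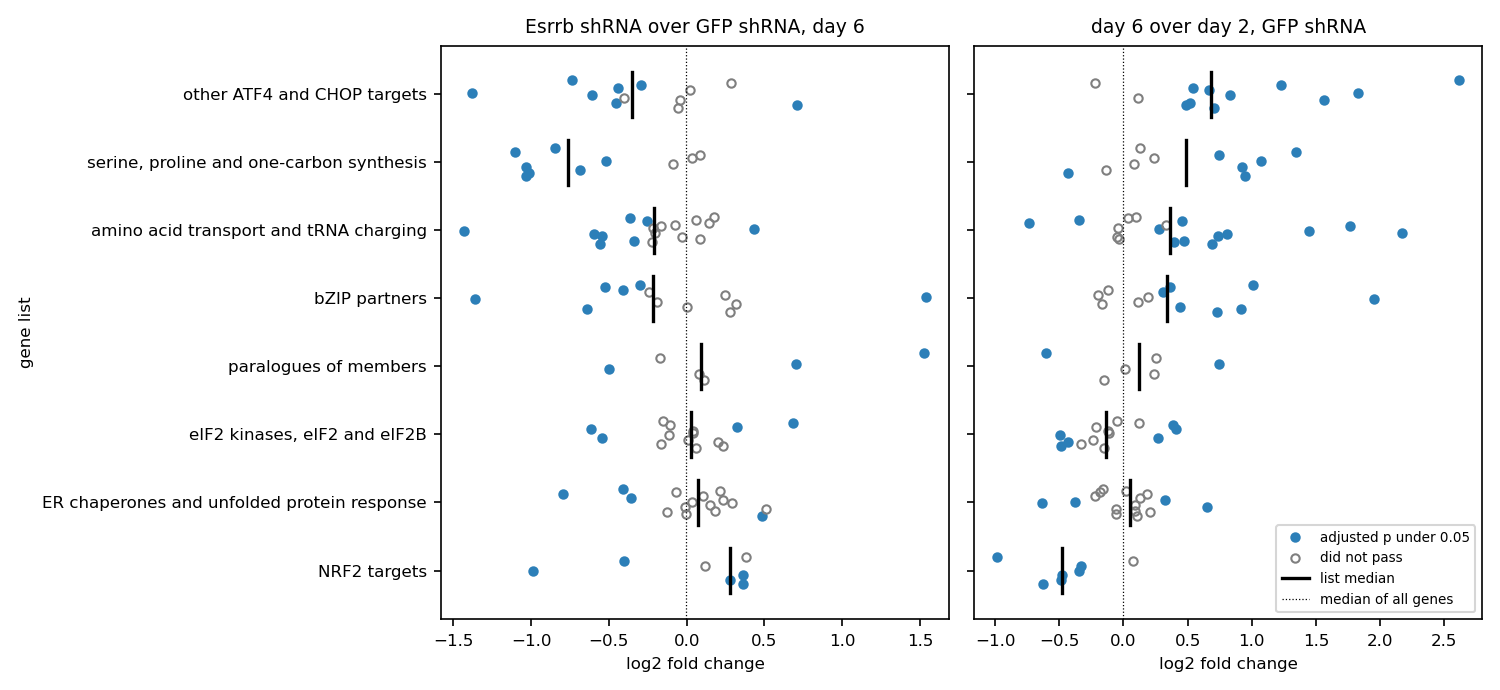
Log2 fold change (horizontal axes) of each measured gene of 8 lists around the integrated stress response, for Esrrb shRNA over GFP shRNA at day 6 (left) and day 6 over day 2 in GFP shRNA cells (right); filled points passed an adjusted p of 0.05 and black bars are list medians. The ATF4 and CHOP target and the serine, proline and one-carbon lists have medians of -0.35 and -0.77 on the left and 0.69 and 0.49 on the right. The NRF2 list has 0.28 and -0.48, and its median over time in Esrrb shRNA cells, not shown, was -0.38. Jun and Fgf21 were below detection in at least 1 of the groups compared, so their points are not sizes.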

How the data were processed

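BeadStudio 3.2.6 was used by the authors, per the submitters' processing notes. The deposited intensity of a probe averages its beads, per the file headers, and it had not been background-subtracted or normalized between arrays. The deposited detection score is a fraction from 0 to 1 that rises with the signal, so 1 minus the score served as the detection p-value. The deposited bead number (3 to 107 beads per probe, median 37) was read from the same file. The authors' own value table, also deposited as intensity, was taken to log2 here. Its identifiers have no counterpart in the probe table, so it gave counts over all features only and no member's value.

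In R 4.3.3 with limma 3.58.1, background was corrected by normexp with the detection p-values (offset 16), then quantile normalization and log2 followed. Left out were 521 control and non-gene probes. A probe was kept where, in at least 1 group, its detection p was under 0.05 on each of the 3 arrays (19451 probes), and the probe with the highest mean stood for its gene (14532 genes). Further probes were tested in a fit of every probe. Of 34325 target names, 16079 were current RefSeq symbols and 6654 were updated through a unique synonym. A single model with 6 group means took in the 18 arrays, with the Benjamini-Hochberg adjustment per comparison at 0.05 and two-sided tests. The number of arrays limits the precision. Each fold change is the level in Esrrb shRNA over GFP shRNA cells, or the later over the earlier day, unless stated, and errors are SE of the model. The replicate number is the BeadChip, per the file headers. Deviations from group means correlated between same-numbered arrays by -0.01 to 0.31 (median 0.13, 45 pairs) and between others by -0.27 to 0.13 (median -0.07, 90 pairs), so the number was also fitted as a block. The script was tested on simulated data.

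The members, lists and alternatives were chosen with earlier results of these data known. Named were all members, Esrrb, from each list the 3 genes of lowest adjusted p at day 6 and the 5 genes most correlated with Ddit3 and with Nupr1. Alternatives were no background correction, median centring, no filter or a stricter one, the mean of a gene's probes, every probe alone, the block, only the arrays compared, and leaving out each array.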

Additional observations from a re-analysis of the deposited data

Results flagged for a closer look

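For 3 tested members the difference between Esrrb shRNA and GFP shRNA cells was not the same on all days, by the test of the change of that difference. For Trib3 it changed by -0.93 from day 2 to day 6 (SE 0.13, limma adjusted p = 2.05e-05) and by -0.65 from day 2 to day 4 (SE 0.13, limma adjusted p = 0.00372). On its 2 dimmer probes the earlier step did not pass (-0.48 and -0.39, adjusted p = 0.134 and 0.302), and the step from day 4 to day 6 did (-0.54 and -0.64, adjusted p = 0.0468 and 0.0323). For Chac1 it changed by -0.74 from day 2 to day 6 (SE 0.14, limma adjusted p = 0.000737) and by -0.52 from day 2 to day 4 (SE 0.14, limma adjusted p = 0.0378). The Chac1 step from day 2 to day 4 did not pass with median centring (adjusted p = 0.144), with only the arrays compared (0.0583) or without any 1 of 9 of the 12 arrays. For Cebpb it changed by -0.54 from day 2 to day 6 (SE 0.16, limma adjusted p = 0.0179) and by -0.57 from day 4 to day 6 (SE 0.16, limma adjusted p = 0.0192), from a higher level in the knockdown at day 4 to none that passed at day 6. Without GFP shRNA replicate 1 of day 6 these Cebpb changes had an adjusted p of 0.0583 and 0.0626. The later step also missed the threshold without Esrrb shRNA replicate 1 (0.0641) or GFP shRNA replicate 3 (0.0613) of day 4. The summed levels of the stem cell, trophectoderm, fibroblast and endoderm markers also differed between the arms by different amounts on these days. They are given with the first results, and their part in these values was not tested.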

How the results depend on the processing

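No direction of a called member reversed under any alternative. For single tested members, 1160 values kept their direction and side of the threshold, 71 lost the threshold, 24 gained it and 35 that had not passed changed sign. For Ddit3 and Nupr1, 345 values moved by less than the mean spread of their replicates and 27 by more, with day 6 differences between -1.94 and -1.75 (Ddit3) and between -1.68 and -1.44 (Nupr1). Genes called at day 2 numbered 862 with only the arrays compared, against 1765. Tested members called at day 2 numbered 0 with median centring, 1 with no filter and 0 with only the arrays compared, against 3, and those at day 4 numbered 2 with median centring, against 4; the cause was not tested. The authors' table gave 1865, 3764 and 7897 features at days 2, 4 and 6. Leaving out each array gave 1355 to 1794 genes at day 2, 2610 to 3153 at day 4, 5118 to 5384 at day 6, 4574 to 4895 and 6290 to 6789 over time in Esrrb shRNA and GFP shRNA cells, and 3006 to 3598 for the change of the effect. The tested members called then numbered 0 to 3, 2 to 5, 4 to 4, 6 to 6, 6 to 7 and 2 to 4. With median centring the all-gene median at day 4 was 0.10, and this scaling split the calls into 2429 higher and 788 lower there, against 1791 and 1607. Over time it gave 3384 and 1455 in Esrrb shRNA cells, against 2833 and 2559, and 4184 and 2248 in GFP shRNA cells, against 3766 and 3363.

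With the replicate number, which is the BeadChip, as a block, genes called numbered 2192, 3826 and 6384 at days 2, 4 and 6 and 4171 for the change of the effect, and tested members called numbered 4, 4, 4 and 3. Beside the Cebpb difference at day 2 and the Atf5 step given with the results, the block also brought the step from day 4 to day 6 of Atf4 (0.0227) and from day 2 to day 4 of Asns (0.0492) in Esrrb shRNA cells under the threshold, and no other call of a member changed. Signal over background limits what can be said of Sesn2 and Atf3.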
